A study of Mus musculus with 20 samples.

Results

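Moxd1 is a mouse gene for a monooxygenase-like protein, followed here in single livers of mice on a high-fat or a low-fat diet. It was found as every probe set whose platform annotation names Moxd1 alone, and 1 probe set met this rule among 34945 probe sets with 1 gene symbol, so Moxd1 is 1 of 18193 genes measured. The annotation of assembly GRCm38.p6 places Moxd1 (gene identifier 59012, protein coding) on chromosome 10, from 24223517 to 24302783 on the plus strand, a span of 79267 bases. The gene was chosen by its measured values, the difference between the diets in these very arrays, so that difference is described without a test. Tests are kept for other genes: its relatives, its neighbours, gene lists, and the genes that varied with it among mice of the same diet. The gene lists and the diet-responsive genes were chosen with earlier results of these data known, so their diet tests are not independent support.

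Moxd1 belongs to the copper monooxygenases, a small family that hydroxylates its substrates with oxygen and electrons from ascorbate. Its relatives are Dbh, dopamine beta-hydroxylase, which makes noradrenaline, and Pam, which amidates peptide hormones. The Moxd1 protein resembles dopamine beta-hydroxylase in sequence but stays in the endoplasmic reticulum, and its natural substrate is not established. Outside the liver the gene is known from neural crest cells and, in mice, as a marker of brain nuclei that differ between the sexes.

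The 10 high-fat mice ate a diet with 45% of energy from fat and the 10 low-fat mice a diet with 10%, each for 4 weeks. All were male C57BL/6J animals bought at 3 weeks of age, kept on the low-fat diet for 1 week beforehand, and killed on day 30 after 16 h without food; their label gives an age of 8 weeks. High-fat groups that also received a maple syrup extract are not analysed here. Each liver was hybridised to its own Affymetrix 3′ array.

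The values are the authors' probe set scores, which sit on a scale like log2 intensity. The differences between arrays were compressed by an amount that differs between probe sets, so a score difference is neither a log2 fold change nor comparable in size between genes. Array medians ran from 6.56705 to 6.56719 in high-fat mice and from 6.56702 to 6.5672 in low-fat mice, and 0 pairs of arrays were identical. Markers of hepatocytes had a mean score per mouse of 13.6 in both diets, against 6.36 for kidney tubule and 6.38 for skeletal muscle markers. In whole liver RNA, more cells that express a gene and more RNA per cell cannot be told apart. The number of arrays limits the precision, and no detection call was used.

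Among high-fat mice the Moxd1 score was 7.11, 6.98, 6.94, 6.89, 6.95, 7.07, 6.60, 6.56, 6.63 and 6.70 in replicates 1 to 10. Low-fat mice had 6.14, 6.09, 6.35, 6.43, 6.24, 6.09, 6.50, 6.36, 6.18 and 6.14 in the same numbering. Every high-fat mouse lay above every low-fat mouse, and the lowest high-fat mouse exceeded the highest low-fat mouse by 0.0604. The median was 6.91 in high-fat mice and 6.21 in low-fat mice. Of the high-fat mice, 9 scored above every array median, and the 10 low-fat mice scored below every one.

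**Figure D1:**
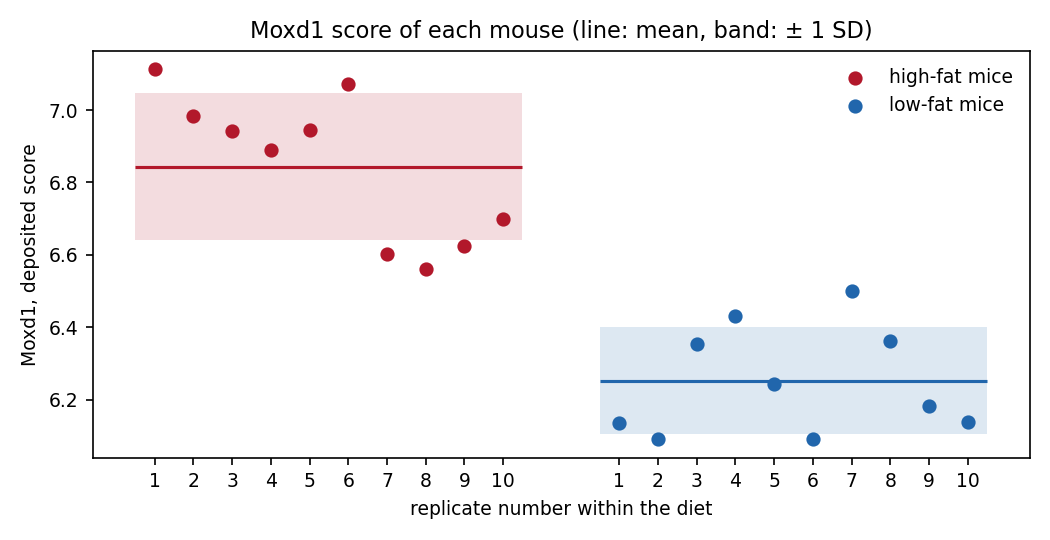
Moxd1 score of each mouse, high-fat mice in red and low-fat mice in blue, against the replicate number in the labels. The labels do not say whether these numbers follow an order of handling. Lines are diet means and bands are 1 SD (n = 10 each). The 10 high-fat mice sit between 6.56 and 7.11 and the 10 low-fat mice between 6.09 and 6.50.

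Moxd1 also varied widely among mice of the same diet. The high-fat mice fell into a lower set of 4 (replicates 7 to 10) and an upper set of 6 (replicates 1 to 6), parted by a gap of 0.188 between 6.70 and 6.89. The widest gap among low-fat mice was 0.112, between 6.24 and 6.35, with 6 mice below and 4 above it. Neither end of either diet stood apart from its nearest neighbour by more than a share of 0.173 of the diet's range. No label or file header gives a cage, extraction or scan batch, so whether the sets of high-fat mice differ in handling was not tested.

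In deposited score units the SD within diets was 0.178 for Moxd1 and 0.355 for the metallothionein gene Mt1. The diet difference, the value by which Moxd1 was chosen, was 0.590 for Moxd1 and -0.0941 for Mt1. Because the compression differs between probe sets, neither quantity ranks genes, and only differences in units of a gene's own spread are set side by side below.

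Measured against its own spread, Moxd1 did not have the largest difference. The standardised difference divides the high-fat minus low-fat mean by the SD within diets, and it was 3.31 for Moxd1. By that measure Moxd1 ranked 8 among rises and 22 of 18193 genes when either direction counts. This place rests on the difference by which Moxd1 was chosen and is only a description. The rises ahead of it were Aadat (6.32), which encodes an aminotransferase of kynurenine and lysine breakdown, the ribonuclease gene Ang (4.22), the chaperone gene Calr (4.15), Selenbp1 (3.84), Ibtk (3.83), the histone gene H2ac19 (3.67) and the carboxylesterase gene Ces4a (3.38). A full separation of the 10 by 10 mice, in which the high-fat mouse is higher in 100 of 100 pairs, was seen for 16 other genes, and the opposite separation for 33. Ang, Ibtk, H2ac19, Ces4a, Mt1 and Hsd3b5 are named for their rank or their wide spread, after their values were seen.

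**Figure D2:**
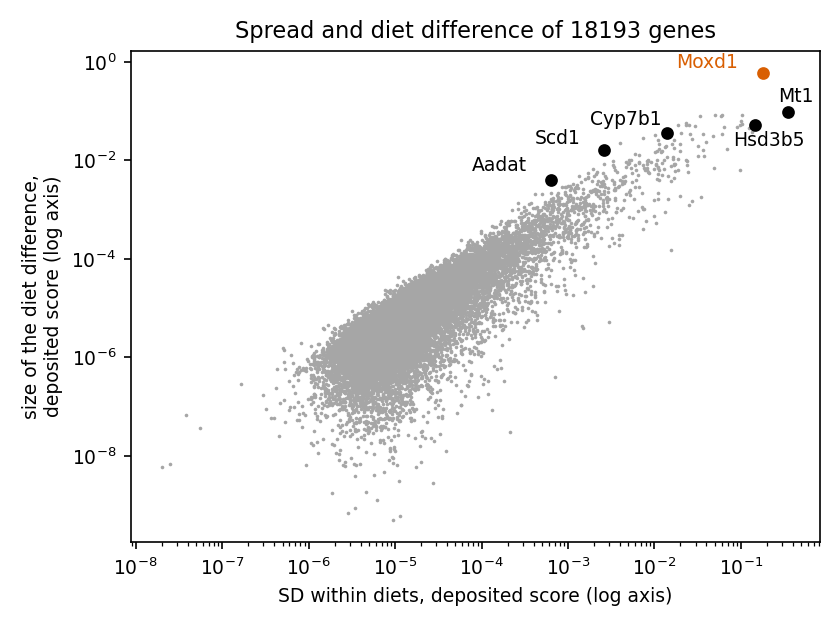
Size of the diet difference against the SD within diets, both in units of the deposited score on log axes, 1 point per gene. Moxd1 (orange) lies at an SD of 0.178 and a difference of 0.590, and Mt1 at an SD of 0.355. Positions of different genes cannot be compared in size, since scores are compressed by unequal amounts.

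The 250 bases before the annotated start of Moxd1 are shown because they are the stretch nearest to the start that the reference holds. They come from RefSeq, GRCm38.p6, chr10:24223267-24223516, plus strand, with matches to the motifs searched in capitals.
Moxd1: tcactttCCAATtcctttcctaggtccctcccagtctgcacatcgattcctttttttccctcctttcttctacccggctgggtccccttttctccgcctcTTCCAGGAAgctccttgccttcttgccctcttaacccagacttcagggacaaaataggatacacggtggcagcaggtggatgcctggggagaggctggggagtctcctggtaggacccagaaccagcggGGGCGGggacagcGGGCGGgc
The window is 58.4% G and C, against a median of 52.4% over the same window of 32851 transcription starts. The capitals mark, from left to right, 1 CCAAT box (CCAAT), 1 GAS element (TTCNNNGAA, the palindrome that STAT proteins bind) and 2 GC boxes (GGGCGG). Over all windows, both strands searched, a CCAAT box occurs in 33.8%, a GAS element in 7.02% and a GC box in 32.7%. The letters of a TATA box (TATAAA, 12.4% of windows), a sterol regulatory element (TCACNCCAC, 1.05%), an E-box (CACGTG, 6.02%), a cAMP response element (TGACGTCA, 1.55%) and an ATF6 site (TGACGTGG, 0.563%) are not in this window. The motifs were picked with the results below known, no 2 matches overlap, and a match is a run of letters and not a shown site.

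The other genes were tested for diet with limma across 18192 genes, with Benjamini-Hochberg adjustment at 0.05. This called 634 genes, or 3.49%, of which 311 (1.71%) rose and 323 (1.78%) fell on the high-fat diet. The split depended on scaling: after quantile normalisation 141 rose and 1341 fell, and with arrays centred on their medians 214 rose and 14883 fell. Centring subtracts a median difference of 7.33e-05 that is larger than the SD of most scores.

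None of the 3 relatives of Moxd1 passed this test. Moxd2, a second monooxygenase-like gene, had a standardised difference of 0.23 (adjusted p = 0.856, limma), Dbh one of -0.96 (adjusted p = 0.269, limma) and Pam one of 1.12 (adjusted p = 0.182, limma). Scaling changed this, since 1 of the 3 fell after quantile normalisation and 2 of 3 fell after centring. The Dbh probe set carries a suffix for possible cross-hybridisation. Scores of all 3 overlapped between the diets, as do those of nearly all genes. Of 18192 genes other than Moxd1, 16 lay fully higher and 33 fully lower on the high-fat diet. The scores of Moxd1 did not overlap, but it was chosen on its diet difference.

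Of the nearest measured genes on chromosome 10, Enpp3 passed and 5 did not. Stx7, an endosomal syntaxin gene 34556 bases before Moxd1, had a standardised difference of 0.26 (adjusted p = 0.834, limma). Gm15270, a long noncoding RNA gene 28905 bases after it, had one of -0.20 (adjusted p = 0.876, limma). The annotation shows no gene between Moxd1 and either of these neighbours. Farther out, the trace amine receptor gene Taar1 had 0.10, the pantetheinase gene Vnn1 -0.17 and the matrix protein gene Ccn2 0.11. Enpp3, an ecto-nucleotidase gene 471031 bases after Moxd1, had scores of 8.69218 to 8.69524 in high-fat mice and 8.69412 to 8.69858 in low-fat mice. It fell by 2.08 SD (adjusted p = 0.0116, limma), with the high-fat mouse higher in 4 of 100 pairs. Its probe set is marked _a_at. Without all probe sets marked _a_at, _s_at or _x_at, another probe set stood for Enpp3 and its adjusted p was 0.0526 (limma).

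**Figure D3:**
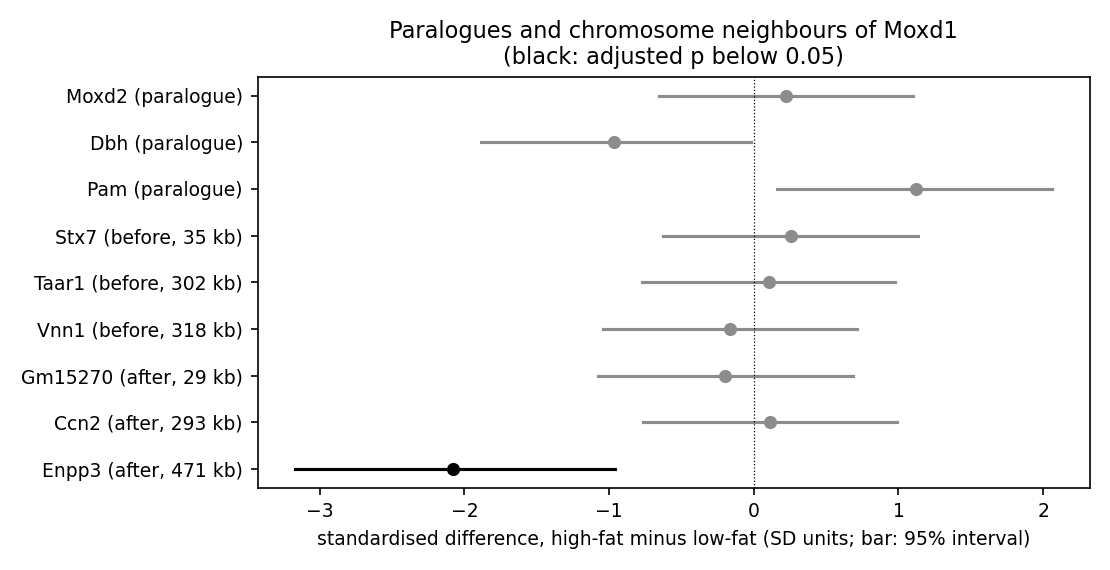
Standardised difference, high-fat minus low-fat, of the 3 relatives and the 6 nearest measured neighbours of Moxd1, with 95% intervals (noncentral t, n = 10 each). Black marks an adjusted p under 0.05, which only Enpp3 of the 9 genes reached, at -2.08.

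Genes of the reactions around a copper monooxygenase were read against the 3.49% of all genes that passed the diet test. In the list for copper uptake, transport and storage, 1 of 18 measured genes fell and 0 rose: Steap2, a metalloreductase gene, fell by 2.15 SD (adjusted p = 0.00924, limma). Of 12 genes that make, carry or recycle ascorbate, 0 passed, and of 13 genes of other copper enzymes, 0 passed. Among 15 genes of catecholamine synthesis and breakdown, 2 fell and 0 rose. Maoa, which oxidises monoamines, fell by 2.60 SD (adjusted p = 0.00263, limma), and Qdpr, which regenerates the pterin cofactor, fell by 1.89 SD (adjusted p = 0.0239, limma). After quantile normalisation the adjusted p was 0.156 for Steap2 and 0.108 for Maoa (limma). With all probe sets of each gene averaged that of Qdpr was 0.0814, and without probe sets marked _a_at, _s_at or _x_at it was 0.255. These counts depended on scaling. After quantile normalisation 4 of 11 other copper enzymes fell, as did 2 of 18 in the copper list, 0 of 8 in the ascorbate list passed, and of 14 catecholamine genes 1 rose and 1 fell. After centring, when most genes measured fell, 12 of 13 other copper enzymes, 11 of 18 in the copper list and 12 of 15 catecholamine genes fell, with 1 catecholamine gene up, and of the ascorbate list 6 fell and 2 rose. The median standardised difference was -0.41 for the copper list, 0.14 for the ascorbate list, 0.05 for the other copper enzymes and -0.07 for the catecholamine list, beside 0.04 over all genes.

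The endoplasmic reticulum, where the Moxd1 protein resides, showed a broad rise of its chaperone and stress response genes on the same diet. The list, named for chaperones here, also holds genes that do not encode chaperones, such as Xbp1 and Herpud1. Of 16 measured, 14 rose and 0 fell, with a median standardised difference of 2.53. Calr (4.15 SD, adjusted p = 3.26e-05), Pdia6 (3.19 SD, adjusted p = 0.000479) and Hspa5 (2.99 SD, adjusted p = 0.000924) had the smallest adjusted p-values by limma. Over all genes 1.71% rose. With arrays centred, 13 of 16 rose and 1 fell. In cholesterol synthesis 7 of 17 rose and 0 fell, beside 1.71% of all genes that rose, and after centring 9 rose and 1 fell. Without probe sets marked _a_at, _s_at or _x_at, Msmo1 of these 7 had an adjusted p of 0.962 (limma), while Idi1 and Cyp51 kept their calls. In fatty acid synthesis 4 of 15 fell and 0 rose, beside 1.78% of all genes that fell, and after centring 9 fell. Without probe sets so marked, Me1 of these 4 had an adjusted p of 0.127 (limma), while Scd1 and Fads1 kept their calls. The lists were chosen with earlier results of these data known, so their counts are a description and not independent support. Whether Moxd1 followed these genes from mouse to mouse is a separate question, addressed next within each diet.

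To see which genes varied with Moxd1 apart from diet, each gene was fitted with diet and the Moxd1 score together. At an adjusted p of 0.05 limma called 0 of 18192 genes (0.0%), with 1248 at an unadjusted p under 0.05 and a smallest adjusted p of 0.331. High-fat mice alone gave 0 calls (0.0%, 1304 unadjusted), and low-fat mice alone gave 0 (0.0%, 584 unadjusted). The slope differed between diets for 0 genes (0.0%, 673 unadjusted). In these fits too, genes with very small SDs are called less readily. The correlations that follow, taken over 20 mice with each diet's mean removed unless stated, are therefore descriptions of likeness and not calls.

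The genes most like Moxd1 by Pearson's r were Mgp, an inhibitor of calcification (0.783), Lgals3bp, a secreted galectin-binding glycoprotein (0.774), and the interferon-induced gene Ifit2 (0.766). Aadat (0.758), the lectin genes Cd302 (0.751) and Cd207 (0.725), the cyclin-like gene Ccnyl1 (0.751), the receptor phosphatase gene Ptprm (0.740), the interferon-induced gene Ifitm3 (0.734) and the potassium channel gene Kcnt2 (0.727) completed the first 10. The most opposite were the kallikrein-family gene Klk1b1 (-0.815), the cytochrome P450 gene Cyp2c38 (-0.777), the vesicle fusion gene Doc2b (-0.720), the sugar phosphate exchanger gene Slc37a2 (-0.706) and Nt5dc1 (-0.705). Klk1b1, Doc2b, Slc37a2 and Kcnt2 had mean scores of 5.97, 6.14, 6.50 and 6.00 in high-fat mice, below every array median. In those mice the SD was 5.75e-06 for Klk1b1, 8.70e-06 for Doc2b and 4.84e-06 for Cd302, against 4.13e-05 for the array median. Values of r for these single genes after quantile normalisation or centring are not given here. By Spearman's rho 4 of the 10 most alike stayed within the first 10 and all 10 within the first 100. The 2 diets ordered the genes almost independently, as r in high-fat mice and r in low-fat mice correlated by 0.0816 over genes. Beyond 0.8 in size were 125 genes in high-fat mice and 50 in low-fat mice, and 0 in both with the same sign. Among 18192 genes, sets this small would share hardly any by chance, so that 0 adds nothing.

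Aadat had the largest standardised difference among genes that rose, and its r with Moxd1 was high in each diet. Its scores ran from 10.6736 to 10.6751 in high-fat mice (median 10.6741) and from 10.6693 to 10.6715 in low-fat mice (median 10.6701), without overlap. It rose by 6.32 SD (adjusted p = 1.27e-07, limma). Its r with Moxd1 was 0.763 in high-fat mice and 0.803 in low-fat mice, it had the highest rho of any gene over both (0.836), and r was 0.704 without the 2 mice farthest from their diet mean, high-fat replicates 1 and 8. Cyp2c38 ran the other way on both counts: it fell by 2.19 SD (adjusted p = 0.00832, limma), with r of -0.861 in high-fat mice and -0.695 in low-fat mice. Of the 10 most alike, the 8 other than Aadat and Kcnt2 had negative standardised differences that did not pass, between -0.03 and -1.21.

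**Figure D4:**
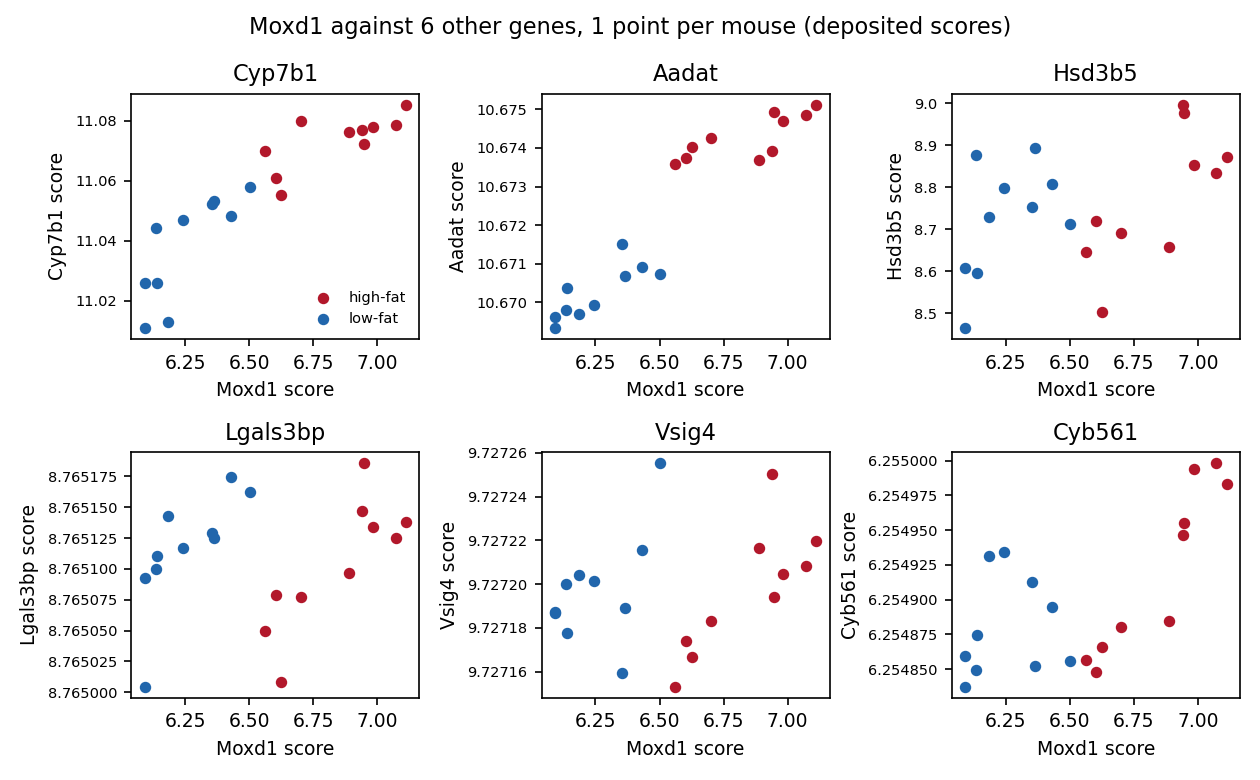
Scores of 6 genes against the Moxd1 score, 1 point per mouse, high-fat in red and low-fat in blue; each axis has its own range because scores are compressed unequally. Cyp7b1 and Aadat climb with Moxd1 in both diets (r of 0.745 and 0.763 in high-fat mice, 0.796 and 0.803 in low-fat mice), while Cyb561 does so in high-fat mice (0.933) and hardly in low-fat mice (0.148).

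Cyb561 had the highest r in high-fat mice. It encodes a transmembrane cytochrome that passes electrons from ascorbate into secretory granules, where Dbh and Pam use them. Its scores were 6.25485 to 6.25500 in high-fat mice and 6.25484 to 6.25493 in low-fat mice. Its r was 0.933 in high-fat mice (rho 0.952) and 0.148 in low-fat mice (rho 0.273). The difference in slope had an unadjusted p of 0.0111 and an adjusted p of 0.9996 (limma), so it did not pass. Exoc3l2 (0.908) and the RNA-binding protein gene Dnd1 (0.904) followed in high-fat mice. In low-fat mice Mro (0.935), the phospholipid flippase gene Atp9a (0.893) and the ubiquitin ligase adaptor gene Klhl18 (0.892) led. These had r of -0.07, 0.14 and -0.17 in high-fat mice. The SD was 2.45e-06 for Dnd1 in high-fat mice, against 4.13e-05 for the array median. In low-fat mice it was 1.89e-06 for Mro and 5.49e-06 for Klhl18, against 6.59e-05 for the array median. Scores of Cyb561 and Mro lay below every array median.

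For 10 genes with a marked response to the diet, r and rho were tested in each diet by permutation (100000 resamples, two-sided). The 20 relations were adjusted together, for r and for rho separately. Cyp7b1, an oxysterol hydroxylase gene of bile acid synthesis, scored 11.0552 to 11.0854 in high-fat mice (median 11.0766) and 11.0109 to 11.0580 in low-fat mice (median 11.0456), and rose by 2.56 SD (adjusted p = 0.00283, limma). In high-fat mice its r with Moxd1 was 0.745 (permutation p = 0.0101, adjusted 0.0835) and its rho 0.733 (permutation p = 0.0202, adjusted 0.202). In low-fat mice r was 0.796 (permutation p = 0.00816, adjusted 0.0835) and rho 0.879 (permutation p = 0.00154, adjusted 0.0308). This was the only relation of the 20 that passed, and only by rho. After quantile normalisation its adjusted permutation p for rho was 0.0658, over the 14 relations left. The Cyp7b1 probe set is marked _s_at, and r from another probe set is not given here. Without the 2 mice farthest from the median Moxd1 score, r was 0.708 in high-fat mice and 0.759 in low-fat mice. Apoc2, an apolipoprotein gene that fell with diet, had r of -0.760 in high-fat mice (rho -0.685, permutation p of r = 0.0125, adjusted 0.0835) but 0.139 in low-fat mice. In high-fat mice r of Apoc2 was -0.650 without 2 mice and 0.405 in the upper set of 6. Selenbp1, which rose and is also read from a probe set marked _s_at, had r of 0.565 in high-fat mice and 0.495 in low-fat mice. The other 7 genes, Scd1, Fads1, Cyp3a11, Calr, Hspa5, Pdia6 and Sqle, had r between -0.43 and 0.51 in either diet and adjusted p of at least 0.456 for r and 0.316 for rho.

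In the deposited scores, male-biased liver genes had the highest median r with Moxd1 of the pathway lists. In rodents the sex bias of these genes follows the pattern of growth hormone secretion; all mice here were male. Of 15 measured, 11 had a positive r and 10 had an r above 0.4, beside 5.91% of all genes. The median r was 0.563 against -0.016 over all genes. Members of a list are read in the same mice, so such counts are not counts of independent observations. Cyp7b1 (0.697), the complement regulator gene Susd4 (0.679), Nudt7 (0.640), the steroid reductase gene Hsd3b5 (0.636), the organic anion transporter gene Slco1a1 (0.634) and the fatty acid elongase gene Elovl3 (0.619) led, and Bcl6, a transcriptional repressor gene, was lowest (-0.160). The median r was 0.621 in high-fat mice and 0.395 in low-fat mice. Of the 15, 3 rose with diet and 0 fell: Cyp7b1, Susd4 (2.68 SD, adjusted p = 0.00213, limma) and the complement gene C6 (1.70 SD, adjusted p = 0.0371, limma, and 0.214 with the sign turned after quantile normalisation). Hsd3b5, Slco1a1 and Elovl3 had standardised differences of 0.35, -0.04 and -0.61 that did not pass. No member's slope on Moxd1 passed the adjustment over all genes, with a smallest adjusted p of 0.463.

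Female-biased genes had a negative median r. Of 16 measured, 6 had a positive r and 0 an r above 0.4, with a median of -0.198 against -0.016 over all genes. After quantile normalisation the median was -0.171 against -0.133 over all genes, and after centring -0.120 against -0.107. The sulfotransferase gene Sult3a1 was lowest (-0.402). The median was -0.293 in high-fat mice and 0.029 in low-fat mice. On the high-fat diet Cyp3a44 fell by 2.66 SD (adjusted p = 0.00219, limma, and 0.674 after quantile normalisation), but its r with Moxd1 was -0.086.

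Markers of Kupffer cells, the resident macrophages of the liver, also had high r. All 8 were positive and 7 were above 0.4, with a median of 0.605, a lowest value of 0.307 for Marco and a highest of 0.685 for Vsig4. None of the 8 passed the diet test, with a median standardised difference of -0.05, although 1 rose and 1 fell after quantile normalisation and 3 fell after centring. Their mean standardised score correlated with Moxd1 by r = 0.740 in high-fat mice (rho 0.733, permutation p = 0.0122, adjusted 0.392 over 32 relations, 0.647 without 2 mice) and by 0.534 in low-fat mice (rho 0.612, permutation p = 0.109, adjusted 0.873, and -0.036 without replicates 4 and 7). After quantile normalisation 5 of 8 were positive with a median of 0.027, and after centring 8 of 8 with 0.254. None of the other 30 relations, over array medians, spike-in controls, 3′ to 5′ ratios of control transcripts and 10 other marker lists, passed either. The array median itself had r of 0.612 in high-fat mice (rho 0.576, permutation p = 0.0342, adjusted 0.548, 0.261 without 2 mice) and -0.307 in low-fat mice. Between the diets none of these 16 measures passed, with a smallest adjusted p of 0.161 by permutation, for the array median. Whether the array median takes part in the relations above was not tested.

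**Figure D5:**
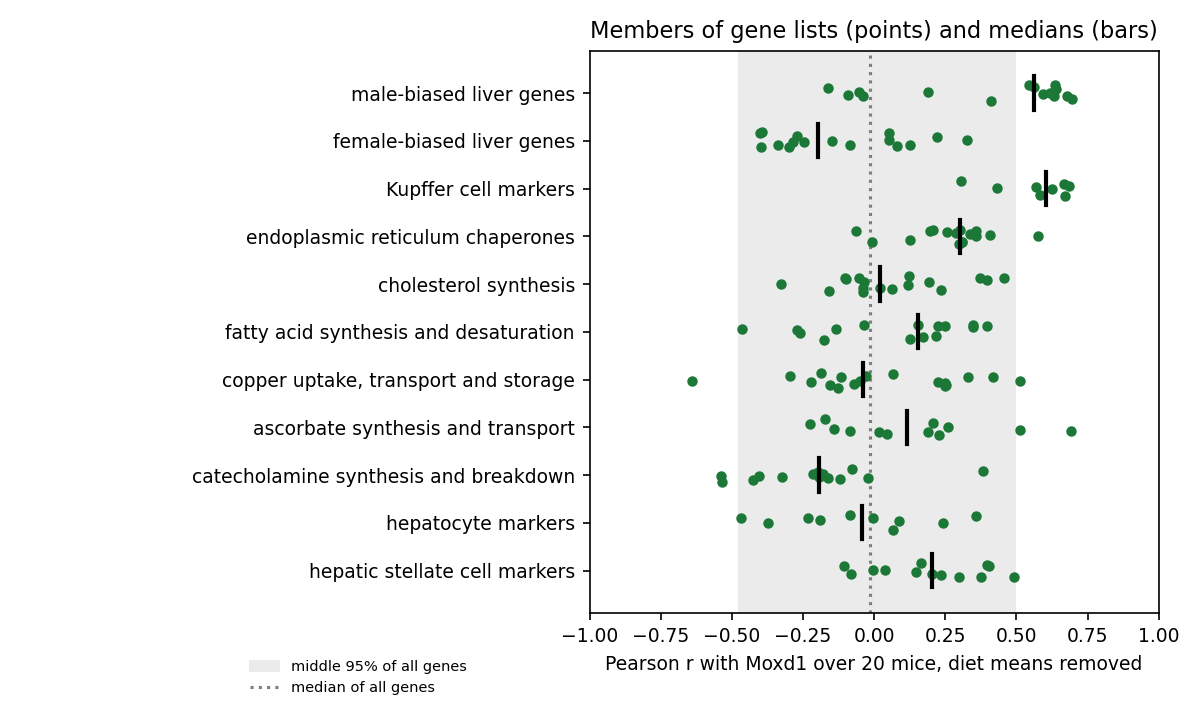
Pearson's r with Moxd1 over 20 mice with diet means removed, for members of 11 gene lists (points) with list medians (bars), beside the median of all genes at -0.016 (dotted) and the middle 95% of all genes from -0.473 to 0.494 (grey). Male-biased genes (median 0.563) and Kupffer cell markers (0.605) lie to the right and catecholamine genes (-0.193) to the left in the scores as deposited; after quantile normalisation the Kupffer cell median was 0.027 and the catecholamine median (-0.078) lay above that of all genes (-0.133).

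For the pathway lists nearer to the enzyme family the values depended on scaling. The median r was 0.300 for the endoplasmic reticulum chaperones, with 14 of 16 positive, 0.116 for the ascorbate list with 8 of 12, -0.039 for the copper list with 8 of 18 and -0.193 for the catecholamine list with 1 of 15. After quantile normalisation, with a median of -0.133 over all genes, they were 0.209, -0.175, -0.080 and -0.078 in the same order, and after centring, with -0.107 over all genes, 0.255, -0.087, -0.112 and -0.152. Of the relatives, Moxd2 had an r of 0.601, Pam 0.433 and Dbh -0.406; the median of the 3 was 0.433, and -0.048 after quantile normalisation and 0.004 after centring. Hepatocyte markers had a median of -0.044 and hepatic stellate cell markers 0.203, which after centring was 0.004.

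The high-fat mice fell into 2 sets by Moxd1 score, so r in high-fat mice includes the step between the sets. Within the upper set of 6 the Moxd1 score ran only from 6.89 to 7.11, a narrowed range that by itself can lower r, and the lower set of 4 is too few. The median r of male-biased genes was 0.338 in these 6 mice and 0.621 in all 10. Kupffer cell markers had medians of -0.012 and 0.693, and endoplasmic reticulum chaperones -0.091 and 0.220, in the same order. Of single genes, r in these 6 mice was 0.788 for Cyp7b1, 0.779 for Aadat and 0.787 for Cyb561, but 0.267 for Mgp and 0.052 for Lgals3bp. The sign was turned from that in all 10 for Apoc2 (0.405), Moxd2 (-0.326) and Pam (-0.411), among others. With 6 mice chosen on the Moxd1 score, whether the relations hold within a set cannot be told from these values.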

How the data were processed

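Liver RNA of 20 mice was measured on 20 arrays, 10 per diet. Biotin-labelled RNA was made from 200 ng of total RNA with a 3′ kit, per the labels' protocols. The deposited value is a score per probe set and array. The sources used here do not give how the authors summarised and normalised it. The design had assumed log2 values; the scores are on a compressed scale of that kind (98.2% of 45037 probe sets had an SD below 0.001), so sizes are standardised differences. A single gene symbol was annotated to 34945 of them and several to 932, and 9160 are unnamed here; each gene was represented by its probe set with the highest mean, and 64 controls were left out of the fits. Without a filter on low values, limma 3.58.1 in R 4.3.3 fitted diet, and the slope on Moxd1 within diets, over 18192 other genes, after tests on simulated data. Permutations ran in Python 3.11.15. The table held 0 columns of other samples. The labels call the mice biological replicates.

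Moxd1, the gene lists and the tests were chosen with earlier results of these data known. Besides Moxd1, named genes were its relatives, the 3 nearest measured genes on each side, 10 diet-responsive partners, the 10 highest and 5 lowest by r within diets, the 3 highest in each diet, and up to 3 called members of each list; others, including list members named by their r, were chosen after their values were seen. The alternatives and their effects are given at the end.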

Additional observations from a re-analysis of the deposited data

Results flagged for a closer look

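Outlying mice were sought in 104 groups of 10 mice, the 2 diets of the 52 genes that the naming rule gave, by the gap of the highest or lowest mouse to its neighbour as a share of the group's range. Moxd1 itself had no such mouse in either diet. A share above Dixon's 95% critical value was found in 5 groups, where chance gives about 1 in 20 groups. Dbh had a high value in low-fat replicate 1 (0.5405). Lgals3bp had a low value in low-fat replicate 2 (0.5207), and Doc2b in low-fat replicate 8 (0.5177). Atp9a had a low value in high-fat replicate 9 (0.4879), as did Cyp51 (0.5131).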

How the results depend on the processing

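The Moxd1 difference, by which the gene was chosen, was 0.59 after quantile normalisation and 0.5601 to 0.6213 with single mice left out; centring and averaging of probe sets cannot move it visibly, since array medians differ little and it has 1 probe set. The count of diet calls was 634 as reported, 1482 after quantile normalisation, 15097 after centring, 420 with a replicate block, 211 at a threshold of 0.01, and 496 to 719 with single mice left out. Replicate numbers did not pair the mice: same-numbered mice correlated by -0.159 to 0.26, and 1 of 10 correlated best with its own number. With the replicate block the adjusted p was 0.0673 for Cyp2c38, 0.0619 for Qdpr, 0.174 for C6 and 0.155 for Slc1a2, a pericentral transporter gene that rose in the fit as reported (1.62 SD, adjusted p = 0.0471, limma). C6 lost its call in 13 and Slc1a2 in 14 of 20 fits without 1 mouse, and C6 turned its sign after quantile normalisation (adjusted p = 0.214). No other call given by gene above was lost by leaving out 1 mouse.

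Slopes on Moxd1 gave 0 calls except for 1 gene each in 4 cases: Lhfp in high-fat mice after quantile normalisation (adjusted p = 0.0228, limma), Rasd1 for the difference in slope with the replicate block (0.00629), Cyb561 in high-fat mice without replicate 4 (0.0466), and Ifit2 over both diets without low-fat replicate 1 (0.0213). With single mice left out the counts were thus 0 to 1 in high-fat mice and over both diets. By rho, 1 of the 20 partner relations passed, against 0 by r; r changed sign in 1 of 14 relations after quantile normalisation and 1 of 20 without 2 mice. Added after the data were seen, the median r of male-biased genes was 0.514 to 0.622 without single mice, 0.434 after quantile normalisation and 0.464 after centring. In the upper 6 high-fat mice the medians were -0.0123 for Kupffer cell markers (0.693 in all 10) and -0.0912 for chaperones (0.220); the Moxd1 range is narrower there by construction. Another probe set of Moxd1 could not be tried, since there is 1. Compression of the scores limits all sizes.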
